A study of Mus musculus with 8 samples.

Results

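Chemokines are small secreted proteins that draw leukocytes along a gradient, and they act through G protein-coupled receptors on the cells they attract. Their names follow the spacing of conserved cysteines near the start of the mature protein (Ccl, Cxcl, Cx3cl and Xcl), and each class has its own receptors (Ccr, Cxcr, Cx3cr and Xcr). Atypical receptors (Ackr) bind chemokines without the usual G protein signal and take them up or hold them. In muscle, such signals are best known for bringing monocytes to damaged fibres. The chemokine system is described here in the soleus (a calf muscle rich in slow fibres) of mice with a point mutation in dynamin 2, a GTPase that cuts vesicles from membranes. Members were all protein-coding genes in GENCODE M21 whose symbol begins with Ccl, Cxcl, Ccr, Cxcr or Ackr and a digit, together with Cx3cl1, Cx3cr1, Xcl1 and Xcr1. This gave 67 of the 22880 genes in the count files, made up of 44 ligands, 19 receptors and 4 atypical receptors. The 67 carry 62 symbols, 60 of the genes lie on chromosomes, and the other 7 are copies of Ccl19, Ccl21 and Ccl27 genes on unplaced scaffolds.

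RNA had been sequenced from the soleus of 4 control mice (Dnm2 +/+) and 4 heterozygous Dnm2 +/K562E mice, all male, 2 months old and on the C57BL/6 background (C57bl/6 J in the methods of the study). The K562E change was introduced into the gene itself and is therefore carried by every cell type of the muscle, with a loxP site left in a neighbouring intron, and all mice kept a wild-type allele. The controls were littermates or age-matched mice without the mutation. Total counts lay between 33407430 and 48832814 per mouse, and replicates differed by more than sampling noise (for the closest pair within a genotype, chi-square divided by its degrees of freedom was 12.9). Total Dnm2, which does not separate the alleles, did not check the labels (log2 fold change 0.15, adjusted p = 0.0917). The fibre genes Acta1, Ckm, Myh7 and Myh2 were abundant in all 8 libraries, as the tissue label requires. Their levels were not the same in both genotypes. Each was lower in every Dnm2 +/K562E mouse than in any control, at log2 fold changes from -1.02 (Ckm) to -0.52 (Acta1).

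Levels are normalized CPM, the count of a gene scaled to a common library size after TMM adjustment. A gene was tested if it had 10 or more counts in at least 4 mice, which held for 14062 genes and for 29 of the 67 members (17 ligands, 8 receptors and all 4 atypical receptors). A gene was said to have risen or fallen when its adjusted p was under 0.05 and its log2 fold change reached 0.58 in size, in edgeR's quasi-likelihood test with Benjamini-Hochberg adjustment over all 14062 genes. SE is the standard error on the log2 scale. All adjusted p-values below come from this test unless another is named. Over all genes, 20.7% passed both thresholds, with 12.9% higher and 7.85% lower. Of the tested members, 13 rose, 2 fell and 14 did not pass both thresholds, and their median log2 fold change was 1.02, beside 0.01 over all tested genes. The filter favours genes that are high in either genotype. Among the 20 members with 10 or more counts in all 4 controls, 9 rose and 2 fell. Of the other 9, which were low in at least 1 control, 4 rose, and Ccl22 reached 10 counts only in Dnm2 +/K562E mice. The genotypes did not overlap in 12 of the 29, with all Dnm2 +/K562E mice above all controls in 10 and below in 2. The share of all tested genes without overlap was 41.1%, with 20.6% above and 20.5% below. With library size alone in place of TMM, which moves the median over all genes from 0.01 to 0.22 on the log2 scale, 15 members rose and 1 fell. Over all genes, the higher share of the calls was 62.1% with TMM and 83.5% with library size alone.

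**Figure D1:**
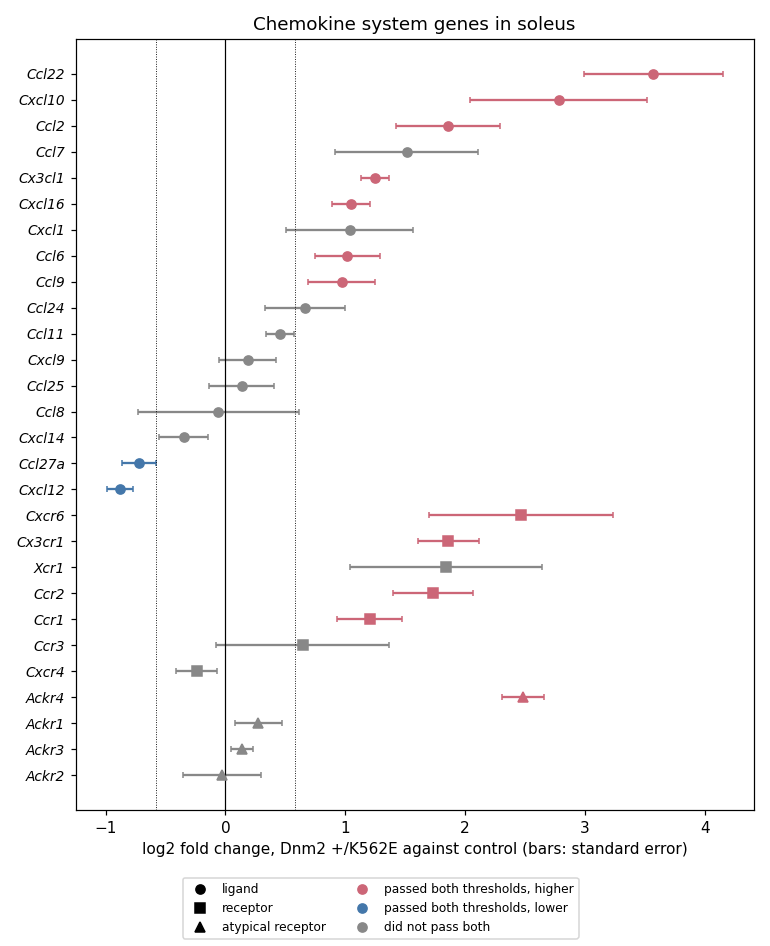
Log2 fold change of 28 of the 29 tested members (x axis, Dnm2 +/K562E against control, bars are standard errors, 4 mice per genotype), with dotted lines at the fold threshold in each direction. Ccl22 (3.57), Cxcl10 (2.78) and Ackr4 (2.48) lie farthest to the right, and Cxcl12 (-0.88) and Ccl27a (-0.72) are the only coloured points on the left.

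The immune cells that could carry these genes were followed with lists of marker genes. Of 12 macrophage markers, 9 rose and none fell, and their summed level was 160 to 301 CPM in controls and 326 to 535 CPM in Dnm2 +/K562E mice. The leading macrophage genes by p-value were Cd68 (log2 fold change 1.77), Lgals3 (2.10), C1qa (1.20) and Mrc1 (1.15). Cd163 (0.64), Folr2 (0.45) and Mertk (-0.12) did not pass both thresholds. Markers of lymphocytes were close to 0. The 7 T cell genes summed to 0.448 to 1.47 CPM in controls and 0.972 to 1.85 CPM in Dnm2 +/K562E mice, and only Cd4, which macrophages can also express, was high enough to be tested. The 5 natural killer cell genes reached at most 0.559 and 0.721 CPM in sum, and the 4 B cell genes 2.26 and 1.65 CPM, with no natural killer cell gene and 1 B cell gene high enough to be tested. The B cell gene Cd79a was not tested but was lower in each Dnm2 +/K562E mouse (0.0271 to 0.215 CPM) than in any control (0.238 to 0.655 CPM). Of 6 neutrophil markers, 3 were tested, and S100a9 (log2 fold change 1.38), Retnlg (1.30) and Csf3r (1.04) did not pass. S100a8 was too low to be tested but was higher in each Dnm2 +/K562E mouse (0.215 to 0.787 CPM) than in any control (0.0224 to 0.119 CPM), and Ly6g was at 0 in all mice. Of 5 dendritic cell markers, Itgax (2.71) and Flt3 (1.45) rose, whereas Zbtb46 (-0.51), Cd209a (0.87) and Clec9a (0.34) did not pass both thresholds. Control 4 had the highest macrophage sum of the controls. It was also the highest control for 11 of the 13 members that rose and for 11 of the 14 that did not pass. Dnm2 +/K562E mouse 4 was the lowest of its group for 8 of the 13 and for 6 of the 14. In bulk muscle, more cells of a type and more RNA per cell cannot be told apart, and the part of macrophages in the changes below was not tested.

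The ligands that rose included both membrane-anchored chemokines, which tether passing leukocytes and can also be shed. Cx3cl1 (fractalkine; chr8:94772009-94782427, plus strand, GRCm38) measured 10.3, 9.20, 8.62 and 9.51 CPM in controls 1 to 4 and 22.5, 17.5, 24.5 and 24.9 CPM in Dnm2 +/K562E mice 1 to 4. Every Dnm2 +/K562E mouse was well above every control. The log2 fold change was 1.25 (SE 0.12, adjusted p = 1.39e-05), which is 2.38-fold. Cxcl16 (chr11:70453983-70459984, minus strand) was at 3.63, 4.28, 4.75 and 5.0 CPM in controls and at 11.6, 7.60, 8.04 and 9.48 CPM in Dnm2 +/K562E mice, again without overlap, a log2 fold change of 1.05 (SE 0.16, adjusted p = 3.53e-04). Exons of Cxcl16 share 18.3% of their bases with Zmynd15 on the other strand. Zmynd15 also rose, but only to 1.17 ± 0.279 CPM (SD, n = 4). The proteases that shed these anchored ligands did not pass the thresholds, with log2 fold changes of 0.16 for Adam10 and -0.03 for Adam17.

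Ccl2, the main attractant of inflammatory monocytes, was low in all controls, at 0.179, 0.564, 0.448 and 0.736 CPM. In Dnm2 +/K562E mice it was at 2.99, 1.63, 1.26 and 1.13 CPM, above all controls, with mouse 1 the highest. Its log2 fold change was 1.86 (SE 0.43, adjusted p = 0.00535). Ccl7, the gene next to it and an attractant of the same cells, was at 0.119, 0.119, 0.201 and 0.383 CPM in controls and at 1.03, 0.488, 0.715 and 0.135 CPM in Dnm2 +/K562E mice. Mouse 4 of the mutants lay within the control range, and Ccl7 missed the threshold (log2 fold change 1.51, SE 0.60, adjusted p = 0.0608). It passed by edgeR's exact test (adjusted p = 0.0264) and by DESeq2 (adjusted p = 0.0445). Ccl12, another ligand of the same receptor, had 0 to 7 counts in controls and 7 to 27 in Dnm2 +/K562E mice and was too low to be tested.

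Ccl6 and Ccl9 are mouse chemokines of macrophages and other myeloid cells that act on Ccr1, and both are expressed at higher levels than Ccl2 in this muscle. Ccl6 (chr11:83587882-83593087, minus strand) was at 7.78, 10.4, 10.7 and 20.5 CPM in controls and at 33.5, 26.2, 19.9 and 20.3 CPM in Dnm2 +/K562E mice. Ccl9, which lies beside it (chr11:83572919-83578636, minus strand), was at 6.58, 10.8, 8.64 and 18.1 CPM in controls and at 30.5, 19.1, 18.9 and 17.9 CPM in Dnm2 +/K562E mice. In both genes control 4 stood above the other controls and reached the lowest Dnm2 +/K562E mice, so the genotypes overlapped. The log2 fold changes were 1.02 for Ccl6 (SE 0.27, adjusted p = 0.0108) and 0.97 for Ccl9 (SE 0.28, adjusted p = 0.0157). Without Dnm2 +/K562E mouse 1, Ccl9 no longer passed (log2 fold change 0.76, adjusted p = 0.0524).

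Ccl22 and Cxcl10 had the largest fold changes of the ligands, from very low control levels. Ccl22, which macrophages and dendritic cells make to attract T cells through Ccr4, had 2, 0, 3 and 5 counts in controls (0 to 0.147 CPM) and 49, 27, 25 and 32 counts in Dnm2 +/K562E mice (0.596 to 1.33 CPM). The genotypes did not overlap, and the log2 fold change was 3.57 (SE 0.58, adjusted p = 5.71e-04), or 4.16 without control 4. Only Dnm2 +/K562E mice reached the 10 counts of the filter, so the lack of overlap followed from passing it and adds no support. Ccl17, the other ligand of Ccr4, was not tested. It had 3, 0, 0 and 2 counts in controls and 34, 13, 9 and 33 counts in Dnm2 +/K562E mice, so that every Dnm2 +/K562E mouse had more counts than any control. Ccr4 itself had 2 counts in all 8 mice together. Cxcl10, an interferon-inducible ligand of Cxcr3, was at 0.0298, 0.0891, 0.0224 and 0.53 CPM in controls and at 0.679, 1.23, 1.91 and 0.675 CPM in Dnm2 +/K562E mice. Control 4 lay far above the other controls but below all Dnm2 +/K562E mice. The log2 fold change of Cxcl10 was 2.78 (SE 0.74, adjusted p = 0.0105), and 4.55 without control 4. Exons of Cxcl10 share 5.91% of their bases with Art3 on the other strand, which was lower (-0.26). Cxcl9, which interferon-gamma induces together with Cxcl10 and which binds the same receptor, did not pass the thresholds, at 2.20 ± 0.769 CPM (SD, n = 4) in controls and 2.49 ± 0.259 CPM (SD, n = 4) in Dnm2 +/K562E mice (log2 fold change 0.18, adjusted p = 0.562). Cxcr3 was not tested, with 0 to 11 counts in controls and 4 to 12 in Dnm2 +/K562E mice.

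**Figure D2:**
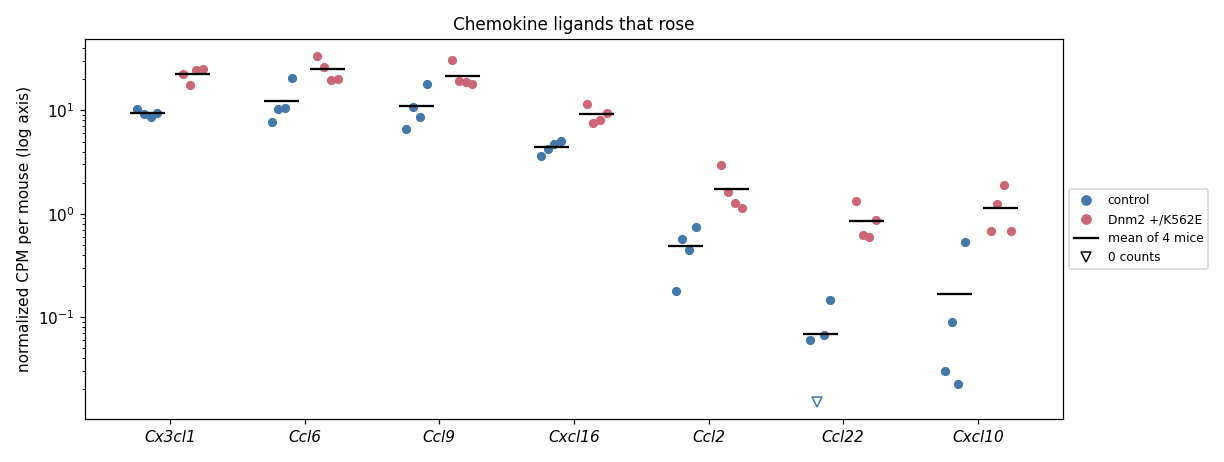
Normalized CPM of the 7 ligands that rose, on a log axis, with a point for each mouse and a line at the mean of 4 mice (an open triangle stands for 0 counts). Dnm2 +/K562E mice lie above all controls for Cx3cl1, Cxcl16, Ccl2, Ccl22 and Cxcl10, and control 4 reaches the lowest Dnm2 +/K562E mice for Ccl6 (20.5 CPM) and Ccl9 (18.1 CPM).

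The most abundant chemokine of the muscle moved the other way. Cxcl12, made by stromal and endothelial cells to hold and recruit progenitors and leukocytes (chr6:117168535-117181367, plus strand), was at 319, 443, 409 and 379 CPM in controls and at 183, 223, 240.2 and 196 CPM in Dnm2 +/K562E mice. All Dnm2 +/K562E mice were below all controls. It fell by 0.88 on the log2 scale (SE 0.11, adjusted p = 1.12e-04), a drop of 45.7%, and it passed both thresholds under all alternatives tried. Cxcl12 made up 70.4% to 80.3% of the summed CPM of all ligands in controls and 48.5% to 60.6% in Dnm2 +/K562E mice. The sum of the other ligands was 97.6 to 159 CPM in controls and 153 to 194 CPM in Dnm2 +/K562E mice, with control 4 inside the range of the mutants. Per kilobase of exon, Cxcl12 was the highest member in controls at 47.4 CPM, followed by Cxcl14 (24.0) and Ccl11 (23.5). In Dnm2 +/K562E mice Ccl11 came first at 32.1 CPM per kilobase and Cxcl12 was at 25.7. The length used was that of all annotated exons merged (8176 bases for Cxcl12, 1082 for Ccl11), and the order may depend on this choice.

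Both receptors of Cxcl12 stayed under the thresholds. Cxcr4, its signalling receptor, was at 5.60, 8.14, 7.66 and 8.24 CPM in controls and at 7.76, 4.81, 5.82 and 6.73 CPM in Dnm2 +/K562E mice, with the genotypes overlapping (log2 fold change -0.24, SE 0.17, adjusted p = 0.278). Ackr3, which takes Cxcl12 up and was the second most abundant member, was at 54.7 ± 2.91 CPM (SD, n = 4) in controls and 60.2 ± 7.13 CPM (SD, n = 4) in Dnm2 +/K562E mice (log2 fold change 0.14, SE 0.09, adjusted p = 0.231). Markers of cells that express Cxcl12 did not all move alike. The summed level of 6 blood endothelial markers was 962 to 1025 CPM in controls and 692 to 774 CPM in Dnm2 +/K562E mice, with 1 of the 6 (Kdr, log2 fold change -0.64) passing both thresholds. The sum of 5 mural cell markers was 1427 to 1579 CPM in controls and 1047 to 1265 CPM in Dnm2 +/K562E mice, and 1 of them (Myh11, -0.63) fell. Fibroblast markers went up in sum, from 497 to 699 CPM in controls to 788 to 884 CPM in Dnm2 +/K562E mice, with 4 of 6 higher, among them Pdgfra (1.11) and Dpt (0.98). The part of these cells in the lower Cxcl12 was not tested.

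Ccl27a, a chemokine best known from the skin (chr4:41769467-41774247, minus strand), also fell. It was at 5.51, 5.29, 6.40 and 5.68 CPM in controls and at 2.77, 3.79, 3.72 and 3.59 CPM in Dnm2 +/K562E mice, without overlap. The log2 fold change was -0.72 (SE 0.14, adjusted p = 0.00194), and with library size alone it was -0.51 (adjusted p = 0.0116), under the fold threshold. Of the 31-base stretches in its transcripts, 57.0% also occur in other genes, as the region holds near-identical copies, so its count is uncertain. Its receptor Ccr10 had 1, 0, 0 and 0 counts in controls and 4, 1, 0 and 0 in Dnm2 +/K562E mice.

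**Figure D3:**
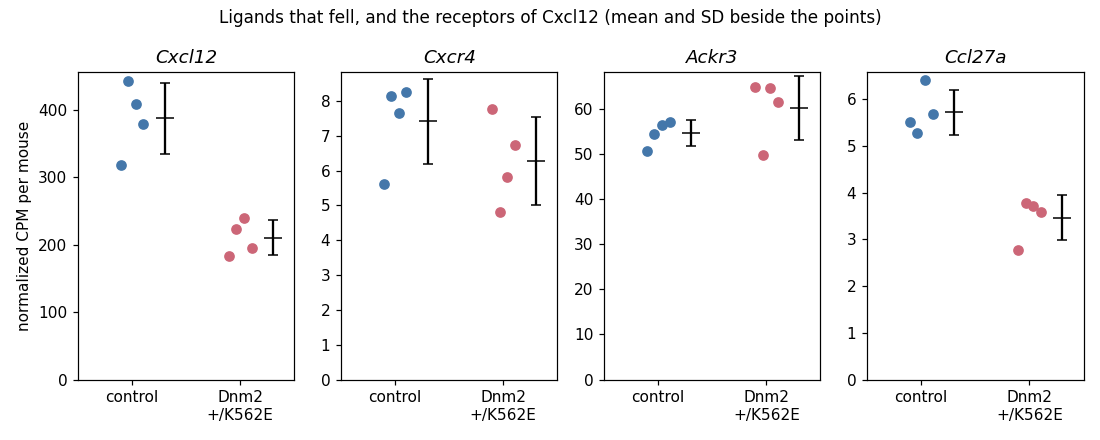
Normalized CPM per mouse of Cxcl12, its receptors Cxcr4 and Ackr3, and Ccl27a, on linear axes that start at 0, with mean and SD (n = 4) beside the points. The genotypes are apart for Cxcl12 (319 to 443 CPM against 183 to 240.2 CPM) and Ccl27a and overlap for Cxcr4 and Ackr3.

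Ccl11 (eotaxin, an attractant of eosinophils) and Cxcl14 are abundant ligands that did not pass both thresholds. Ccl11 was at 29.6, 20.3, 22.3 and 29.3 CPM in controls and at 34.0, 35.3, 37.5 and 32.3 CPM in Dnm2 +/K562E mice. The genotypes did not overlap, and its adjusted p was 0.0104, but the log2 fold change of 0.46 (SE 0.12) was below 0.58. With library size alone it was 0.66 and passed (adjusted p = 0.0018). Cxcl14 ranged from 27.3 to 60.3 CPM in controls and from 29.6 to 44.3 CPM in Dnm2 +/K562E mice (log2 fold change -0.35, adjusted p = 0.197). Among the remaining tested ligands, Ccl24 (0.66), Cxcl1 (1.04), Ccl25 (0.13) and Ccl8 (-0.06) had overlapping genotypes and adjusted p-values of 0.131 or more. Ccl24 and Cxcl1 passed without control 4, at log2 fold changes of 1.04 and 1.60. Chemokines that attract neutrophils through Cxcr2 were scarce. Cxcl1 stayed under 0.8 CPM in every mouse. Cxcl3 had no count, Cxcl2 at most 6 and Cxcl5 at most 4. Cxcr2 had 9, 2, 0 and 2 counts in controls and 33, 1, 6 and 8 in Dnm2 +/K562E mice, where mouse 1 stood alone.

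Receptors followed the same direction as the ligands that rose, with 5 of 8 tested receptors higher and none lower. Ccr2, which marks inflammatory monocytes and reads Ccl2, Ccl7 and Ccl12 (chr9:124101950-124113557, plus strand), was at 6.49, 4.57, 3.94 and 10.5 CPM in controls and at 19.6, 30.9, 22.5 and 11.2 CPM in Dnm2 +/K562E mice. Control 4 came close to Dnm2 +/K562E mouse 4, but the genotypes did not overlap. Its log2 fold change was 1.73 (SE 0.34, adjusted p = 0.00183). Cx3cr1, the receptor of fractalkine on monocytes and resident macrophages (chr9:119901616-120069879, minus strand), was at 2.41, 1.13, 1.70 and 2.68 CPM in controls and at 7.68, 7.72, 8.35 and 4.97 CPM in Dnm2 +/K562E mice, without overlap. It rose by a log2 fold change of 1.86 (SE 0.26, adjusted p = 1.98e-04). In the same mice Ly6c2, a surface marker of the Ccr2-bearing monocytes, did not pass (log2 fold change -0.23, adjusted p = 0.311), and of the 3 tested monocyte markers only Clec4a1 rose (1.10).

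Ccr1, a receptor of Ccl6, Ccl9 and Ccl7 on myeloid cells, was at 0.923, 0.861, 0.806 and 1.53 CPM in controls and at 2.88, 2.72, 2.24 and 1.62 CPM in Dnm2 +/K562E mice. The groups did not overlap, though control 4 nearly reached Dnm2 +/K562E mouse 4 (log2 fold change 1.20, SE 0.27, adjusted p = 0.00474). The ligands Ccl3, Ccl4 and Ccl5, which attract macrophages and T cells, were not tested, with at most 9, 8 and 13 counts in any mouse.

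Cxcr6, the receptor of Cxcl16 on T and natural killer cells, was at 0.0298, 0.238, 0 and 0.383 CPM in controls and at 1.47, 0.999, 0.334 and 0.702 CPM in Dnm2 +/K562E mice, a log2 fold change of 2.46 (SE 0.77, adjusted p = 0.0232). Mutant mouse 3 lay within the control range, and without mutant mouse 1 the call was lost (adjusted p = 0.0701), whereas without control 4 the value was 3.35. Of the T and natural killer cell markers only Cd4 was high enough to be tested (log2 fold change 1.33, adjusted p = 0.0869), and the part of these cells was not tested. Xcr1, a receptor of cross-presenting dendritic cells, was at 0 to 0.383 CPM in controls and at 0.270 to 0.543 CPM in Dnm2 +/K562E mice and did not pass (log2 fold change 1.84, adjusted p = 0.0848). It did so without control 4 (3.26, adjusted p = 0.0101) and by limma-voom (adjusted p = 0.0191). Its ligand Xcl1 had 2 counts in all. Ccr3, the receptor of Ccl11 and Ccl24 on eosinophils, did not pass either, at 0.231 ± 0.222 CPM (SD, n = 4) in controls and 0.36 ± 0.201 CPM (SD, n = 4) in Dnm2 +/K562E mice, and of the eosinophil markers Siglecf was at a log2 fold change of 0.58 (adjusted p = 0.412), while Prg2 was too low to be tested and Epx was at 0 in all mice. Ccr7 was not tested, at 0 to 6 counts in controls and 6 to 21 in Dnm2 +/K562E mice.

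Ackr4 was the member with the smallest p-value. This atypical receptor takes up Ccl19, Ccl21 and Ccl25 and thereby clears them from tissue (chr9:104084157-104126933, minus strand). It was at 1.58, 1.81, 1.63 and 1.00 CPM in controls and at 8.06, 9.0, 8.99 and 7.73 CPM in Dnm2 +/K562E mice, so that the lowest Dnm2 +/K562E mouse was far above the highest control. The log2 fold change was 2.48 (SE 0.17, adjusted p = 2.37e-06), or 5.59-fold, and the gene ranked 146 by p-value among all 14062. It ran from 2.33 to 2.70 over all alternatives. Exons of Ackr4 share 8.90% of their bases with Acad11 on the other strand, and Acad11 moved the opposite way (log2 fold change -0.38). The ligands of Ackr4 were scarce or did not pass. Ccl19 had 1 count in all mice together, Ccl21a at most 2 counts in a mouse, and Ccl25 stood at a log2 fold change of 0.13 (adjusted p = 0.719). Copies of the Ccl19 and Ccl21 genes are nearly identical, and reads that match several places were left out when their mapping quality was low, so these counts may be too low.

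The other 3 atypical receptors did not pass the thresholds. Ackr1, which venules use to display chemokines, was at a log2 fold change of 0.27 (adjusted p = 0.289) with overlapping genotypes, and it shares 25.7% of its exon bases with Cadm3 on the same strand. The venule adhesion genes Icam1 (1.14), Selp (1.46) and Sele (2.32) rose in the same samples, and Vcam1 was at -0.40 without passing. Ackr2, the scavenger of inflammatory CC chemokines, was at 2.39 ± 0.945 CPM (SD, n = 4) in controls and 2.32 ± 0.882 CPM (SD, n = 4) in Dnm2 +/K562E mice (adjusted p = 0.951). Its sign is not settled, as the log2 fold change was -0.03 with TMM and 0.18 with library size alone.

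**Figure D4:**
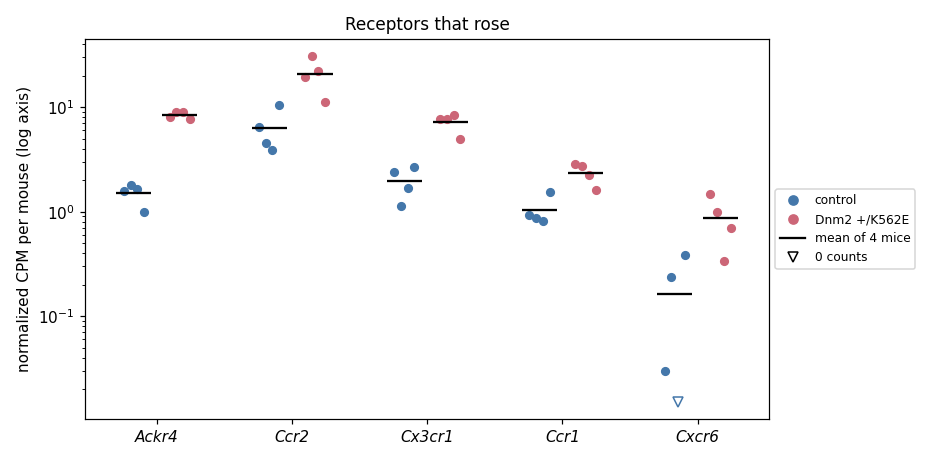
Normalized CPM of 5 of the 6 receptors that rose (atypical Ackr4 included), on a log axis, with a point for each mouse and a line at the mean of 4 mice (an open triangle stands for 0 counts). Ackr4 has the tightest groups (1.00 to 1.81 CPM against 7.73 to 9.0 CPM), and the genotypes overlap for Cxcr6.

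Ligands and receptors were set side by side for a list of 42 known pairs, which held the signalling receptors and, of the atypical receptors, Ackr3 with Cxcl12 alone. In 12 of these pairs both genes were tested. Both rose in 5 of them, namely Ccl2 with Ccr2, Ccl6 and Ccl9 with Ccr1, Cx3cl1 with Cx3cr1, and Cxcl16 with Cxcr6. The pairs share genes, such as Ccr1 for both Ccl6 and Ccl9, so they are not separate results. Of all single genes tested, 12.9% rose, and the share of pairs was not tested. In 2 pairs the receptor alone rose (Ccl7 with Ccr1 and with Ccr2), and in the 3 pairs of Ccr3 neither did. In the 2 pairs of Cxcl12 the ligand fell and the receptor did not pass. Ackr4 and its ligand Ccl25, a pair outside the list, were also both tested, and there too the receptor alone rose.

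Many members lie in clusters of neighbouring genes. Ccl22 and Cx3cl1 are 20309 bases apart on chromosome 8, and Ccl17 follows Cx3cl1 at chr8:94810453-94812036. Both tested genes of this trio rose, Ccl22 having passed the filter through Dnm2 +/K562E mice alone. Ccl17 had more counts in each Dnm2 +/K562E mouse than in any control. On chromosome 11 the members of a cluster differed more. Ccl2 rose, its neighbours Ccl7 (log2 fold change 1.51) and Ccl11 (0.46) missed a threshold each, and Ccl8, further along, was at 0.474 CPM in controls and 0.465 CPM in Dnm2 +/K562E mice (log2 fold change -0.06, with the sign changing to 0.14 with library size alone). Of the receptor cluster on chromosome 9, Cxcr6, Ccr1 and Ccr2 rose, while Xcr1 and Ccr3 between them did not pass.

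**Figure D5:**
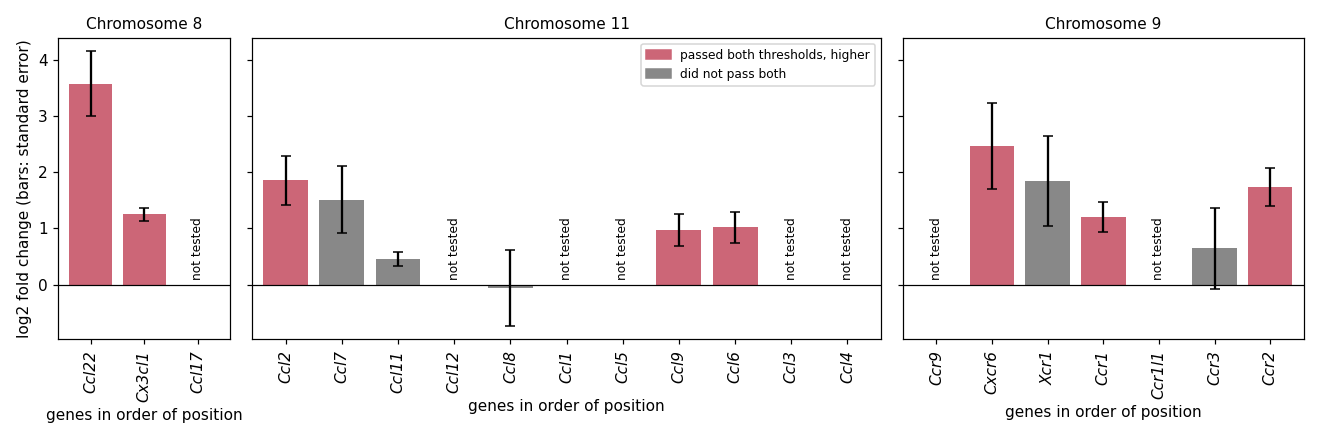
Log2 fold change (bars, with standard errors, 4 mice per genotype) of members that lie near each other on chromosomes 8, 11 and 9, in order of position, with "not tested" where counts were too low. All tested genes are positive except Ccl8 (-0.06), and heights within a cluster range from 0.46 (Ccl11) to 1.86 (Ccl2) among the first 3 genes of chromosome 11.

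Promoter sequence, taken as the 250 bases before the RefSeq start of a gene (GRCm38.p6), was at hand for 23 of the 29 tested members and was searched on both strands for motifs of factors known to drive chemokine genes. These were the kappa-B consensus (NF-kappaB), the ISRE of interferon-regulated factors (GAAA, any 2 bases, GAAA), TTCNNNGAA (GAS, STAT factors) and TGANTCA (AP-1). The promoters shown are those of Cxcl10, a ligand that rose and held 3 kinds of match, of Ccl9, which also rose, of Cxcl1, which did not pass, and of Cxcl12, which fell. Capitals mark matches, and overlapping matches run together.

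Cxcl10 (chr5:92348890-92349139, minus strand): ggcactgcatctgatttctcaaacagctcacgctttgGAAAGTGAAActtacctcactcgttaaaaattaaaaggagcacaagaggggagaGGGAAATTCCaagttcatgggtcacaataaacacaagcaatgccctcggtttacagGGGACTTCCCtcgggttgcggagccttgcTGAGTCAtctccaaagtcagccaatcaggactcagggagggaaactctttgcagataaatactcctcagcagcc
Ccl9 (chr11:83578637-83578886, minus strand): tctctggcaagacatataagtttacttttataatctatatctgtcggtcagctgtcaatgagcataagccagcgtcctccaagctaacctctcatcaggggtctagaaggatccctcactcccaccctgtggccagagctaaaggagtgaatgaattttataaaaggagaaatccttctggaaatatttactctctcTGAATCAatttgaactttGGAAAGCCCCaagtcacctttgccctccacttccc
Cxcl1 (chr5:90890995-90891244, plus strand): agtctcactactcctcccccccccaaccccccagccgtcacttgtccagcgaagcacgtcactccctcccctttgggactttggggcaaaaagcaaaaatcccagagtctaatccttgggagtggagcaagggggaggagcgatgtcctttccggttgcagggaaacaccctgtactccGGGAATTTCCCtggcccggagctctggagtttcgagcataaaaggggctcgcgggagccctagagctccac
Cxcl12 (chr6:117168285-117168534, plus strand): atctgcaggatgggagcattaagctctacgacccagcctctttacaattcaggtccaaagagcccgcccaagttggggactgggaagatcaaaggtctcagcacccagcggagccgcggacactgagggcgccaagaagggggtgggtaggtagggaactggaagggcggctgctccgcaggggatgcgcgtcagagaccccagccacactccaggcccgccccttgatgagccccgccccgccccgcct

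Cxcl10 holds the kappa-B consensus at 2 places, an ISRE match and an AP-1 match. The kappa-B consensus was found in 2 of the 10 promoters of members that rose (Cxcl10 and Ccl9), in 3 of the 12 promoters of tested members that did not pass, and in 3.90% of all 32851 promoters of this length. The ISRE letters occurred in 2.98%, the GAS letters in 7.02% and the AP-1 letters in 6.75% of all promoters. Among the 10 promoters of members that rose, ISRE matched in 1 (Cxcl10), AP-1 in 2 (Cxcl10 and Ccl9) and GAS in none. The other promoters of members that rose held no match to any of these motifs. In the 12 promoters of members that did not pass, ISRE, AP-1 and GAS matched in 1 each. Of the 4 promoters of members that fell, AP-1 matched in 1 (a start of Ccl27a) and the other motifs in none. These 4 belong to Cxcl12 and Ccl27a alone. A gene with several starts was counted once for each, as for Ccl27a and, among members that did not pass, Ccl25.

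Other genes of the chemokine pathway were counted from a list of 48, of which 47 were tested. Besides genes that carry the receptor signal, the list held proteases such as Mmp2 and the chemokine Pf4. Of the 47, 16 rose and none fell, at a median log2 fold change of 0.23. Over all genes, 12.9% were higher and 7.85% lower. The genes with the smallest p-values were the protease Mmp2, which clips chemokines (log2 fold change 1.44), the kinase Src (0.99), the Rac exchange factor Prex1 (0.77) and the receptor adaptor Arrb2 (0.69). Pf4, a CXC chemokine outside the naming rule, was among the 16 (0.97, adjusted p = 0.0135).

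The list of 35 regulators of chemokine genes held inducers and also inhibitors such as Tnfaip3. Of the 35, 29 were tested, 6 rose and 1 fell, a share of changed genes near the 20.7% over all genes. The smallest p-values were those of the pattern receptor Tlr2, at 1.99 CPM in controls and 14.2 CPM in Dnm2 +/K562E mice (log2 fold change 2.84, adjusted p = 2.49e-06), and of the NF-kappaB subunits Relb (1.25) and Nfkb2 (0.95). Tnfaip3 (0.93), Irf5 (0.93) and Irf8 (0.80) were the others that rose, and Jun fell (-0.69). Stat3 had a log2 fold change of 0.54, under the fold threshold (adjusted p = 3.58e-05). The NF-kappaB subunits Nfkb1 (0.01) and Rela (0.39) did not pass both thresholds. The cytokines Tnf, Il1b, Il6, Ifng, Il4 and Il13 were too low to be tested, with means of at most 0.314 CPM in either genotype. With library size alone 11 of these regulators rose and none fell.

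Of the 38 members that were not tested, 7 had no count in any mouse, and 25 had at most 5 counts in every mouse. The highest count of an untested member was 34, for Ccl17. Besides those named above, counts above 5 were seen for Ccl28 (1 to 33), Ccl27b (0 to 7), Cxcl13 (0 to 24) and Cxcr5 (0 to 15), each with overlapping genotypes. Without the filter on low counts, Ccl17 (adjusted p = 0.00349), Ccl12 (adjusted p = 0.0495) and Cxcl5 (adjusted p = 0.0443) passed both thresholds as higher, each with at most 7 counts in any control.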

How the data were processed

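RNA-seq counts were analysed for soleus muscle of 4 control and 4 Dnm2 +/K562E mice. The deposited values are raw read counts per Ensembl gene and mouse, without normalization. According to the study's methods and processing notes, the authors trimmed reads with Trimmomatic 0.33, aligned them with STAR 2.5.1b to GRCm38.p5 with Ensembl release 80, and counted them with featureCounts at a mapping quality of at least 10, multi-mapping reads at their primary alignment and reads over several genes once for each. Whether the strand was used is not given in the sources used here. The methods describe poly A-enriched libraries, whereas the labels name a total RNA kit. The description of Dnm2 +/K562E mouse 1 writes K452E where its title has K562E, and the title was used.

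Of 22880 gene IDs, 22647 were matched to GENCODE M21 (GRCm38). Genes with 10 or more counts in at least 4 mice were tested with edgeR 4.0.16 (TMM factors, quasi-likelihood F-test; R 4.3.3) on genotype alone, with Benjamini-Hochberg adjustment over all 14062 genes. The study's own exact test was an alternative. Standard errors follow from the F statistic. Normalized CPM are counts over library size times TMM factor. Alternatives were edgeR's exact test, DESeq2 1.42.0, limma-voom (limma 3.58.1), median-ratio factors, library size alone, filterByExpr, no filter, replicate blocks, no fold threshold and leaving out each mouse. The fit was checked on simulated counts. Sequence sharing was counted over 31-base stretches of GENCODE transcripts. Promoters are from RefSeq (GRCm38.p6), and the motifs were chosen with these sequences in view.

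The members, gene lists and pairs were chosen with earlier results of these data known. Genes were named by rule: members past both thresholds, their partners, the 5 most abundant and members with an unadjusted p under 0.05. In the macrophage, pathway and regulator lists, the genes with the 4 smallest p-values were named. From the other marker lists only some genes were named, and some of those lists were not described. Further genes of all lists were named after their values were seen. Values of some genes that enter the counts are not reported here.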

Additional observations from a re-analysis of the deposited data

Results flagged for a closer look

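In 6 of the 58 groups of 4 mice (29 tested members in 2 genotypes), 1 mouse lay apart from the other 3 by Dixon's criterion, where chance flags about 1 in 20 groups. Control 4 was that mouse in 4 of the 6. It was the highest control for Ackr2 (3.80 CPM, the next control at 2.00), Ccl24 (2.88 CPM, next 1.43), Ccr1 (1.53 CPM, next 0.923) and Cxcl10 (0.53 CPM, next 0.0891). Dnm2 +/K562E mouse 1 stood above its group for Ccl9 (30.5 CPM, next 19.1), and Dnm2 +/K562E mouse 4 stood below it for Xcr1 (0.270 CPM, next 0.511).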

How the results depend on the processing

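Over the alternatives, 456 of 481 values of single members kept their direction and their side of the thresholds. Fits without 1 mouse gave 10 (without Dnm2 +/K562E mouse 1) to 16 (without control 4) members higher and 2 lower. They gave 1534 to 1936 higher and 1013 to 1198 lower genes in all. Of the other pathway genes 12 to 19 were higher and 0 lower, and of the regulators 6 were higher and 1 to 2 lower. With library size alone, 1 member fell, 2869 genes rose and 566 fell in all, and 11 regulators rose and 0 fell. Without the fold threshold, 3102 genes were higher and 3040 lower, 4 other pathway genes were lower, and 12 regulators were higher and 3 lower. Without a filter 16 members rose, the added genes being Ccl12, Ccl17 and Cxcl5. Among the calls lost were those of Ccl27a with library size alone, of Ccl9 and Cxcr6 without Dnm2 +/K562E mouse 1, and of Cxcr6 with the description block. The cause was not tested. Too few mice reached 10 counts to test Ccl22 without any 1 of the Dnm2 +/K562E mice, and Ccl7 and Ccr3 without Dnm2 +/K562E mouse 1, 2 or 3 or control 4. Signs changed only in genes far from the thresholds. Ackr2 was 0.18 with library size alone and -0.26 to 0.28 without 1 mouse, Ccl8 was 0.14 and -0.55 to 0.29, and Ccl25 was -0.00371 to 0.29. With the numbers of the titles as a replicate block 13 members were higher, and with those of the descriptions 12, with 2 lower in both. No pairing by number was seen on average, as deviations of mice with a shared number correlated at -0.14 (titles) and -0.03 (descriptions). Single correlations ran from -0.25 to 0.23, and so few pairs cannot exclude that mice were paired. Low counts limit the ligands and receptors under about 1 CPM.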
